A study of Homo sapiens with 8 samples.

Results

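The genes described here encode enzymes that add amino acids to tubulin, or remove them: the tubulin tyrosine ligase TTL, 7 tubulin tyrosine ligase-like genes (TTLL1, TTLL3, TTLL4, TTLL5, TTLL7, TTLL11 and TTLL12) and the deglutamylase AGBL5, 9 of the 13546 genes in the deposited count table. TTLL11 was chosen by its higher counts in CDK4 knockout tumours in these same libraries. The other 8 were listed with it as ligases, ligase-like genes or a deglutamylase with counts. The list is not complete, and other deglutamylases with counts, AGTPBP1 and AGBL3 among them, come later. The question was whether the other 8 rose with TTLL11. The RNA came from tumours formed by MDA-MB-231 cells, a long-established line from a human breast cancer of the triple-negative kind, after injection into nude mice, which lack T cells and keep their own stroma and vessels. The injected cells were labelled CDK4WT (4 libraries) or CDK4KO (4 libraries). The labels do not say how CDK4 was disrupted, whether each line was 1 clone, how old the mice and tumours were or whether each tumour came from its own mouse, so the p-values cover the spread among the 8 libraries, which may be technical.

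The tails of alpha- and beta-tubulin stick out from the microtubule surface, and cells mark them with side chains of glutamate or glycine and by removing and re-adding the last tyrosine of alpha-tubulin. Ligases of the TTLL family build the chains, some by placing the first residue and others by lengthening the chain, and carboxypeptidases of the CCP family, which include AGBL5, take glutamates off again. Long glutamate chains are best known from cilia, centrioles, spindles and neurons, where they tune motors and severing enzymes such as spastin.

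Library totals were 27840883 to 33617977 counts, and values are in CPM, the usual scaling of reads to library size, after TMM normalization, which corrects for composition. All 9 genes were above 1 CPM in all 8 libraries, with 4.45 to 102 CPM, so none entered through 1 genotype alone. All 8 markers listed for the cell line had counts, with VIM, the mesenchymal filament vimentin, averaging 9818 CPM over the CDK4WT tumours, while 2 of 5 genes low in the line (GATA3 and FOXA1) had counts, which summed to 8.82 to 10.99 CPM in CDK4WT and 6.84 to 8.85 CPM in CDK4KO. CDK4 mRNA averaged 113 CPM with an SD of 4.04 in the 4 CDK4WT tumours and 122 CPM with an SD of 9.66 in the 4 CDK4KO tumours (edgeR adjusted p = 0.477), so its level does not check the labels. CDK4KO replicates 1 and 4 had the lowest mean correlations with their own group, 0.985 and 0.986. CDK4KO replicates 2 and 3 were close, at 0.988 and 0.989, and the CDK4WT libraries had 0.992 to 0.995. All CDK4KO libraries thus lay below all CDK4WT libraries. CDK4KO replicates 1 and 4 were also left out together, which kept only CDK4KO replicates 2 and 3 in that group.

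TTLL11, which lengthens glutamate chains, was higher in every CDK4KO tumour than in any CDK4WT tumour. It stood at 25.3, 21.0, 22.4 and 22.7 CPM in CDK4WT replicates 1 to 4. In CDK4KO replicates 1 to 4 it stood at 40.5, 31.1, 36.4 and 34.6 CPM. The lowest CDK4KO library was thus 1.23 times the highest CDK4WT library, and the highest of all, CDK4KO replicate 1, is one of those also left out together. The means were 22.8 CPM ± 1.82 and 35.7 CPM ± 3.88 (SD, n = 4 each), a log2 fold change, CDK4KO minus CDK4WT, of 0.64 ± 0.09 (SE) or 1.56-fold. These values chose the gene and are given as a description. Of all genes, 0.746% had a log2 fold change at least as large. Without CDK4KO replicates 1 and 4 it was 0.56 ± 0.09. Behind these values lie 624 to 1184 reads per library, for which counting alone gives an error of 4.003% to 2.91%, below the spread of 7.96% and 10.9% between tumours of a genotype. In bulk tumours a change in the number of cells of a type cannot be told apart from a change of RNA per cell.

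The number of genes called in the same comparison depended on the method. In edgeR's quasi-likelihood test 8 of 13546 genes (0.0591%) passed an adjusted p of 0.05, and 6 of them (0.0443%) were higher in CDK4KO. DESeq2 called 315 genes and limma voom 321, and edgeR called 0 to 183 when 1 library was left out, with 183 without CDK4KO replicate 1 and 0 without CDK4WT replicate 4 or CDK4KO replicate 2. In edgeR TTLL11 lay just inside the threshold, at an adjusted p of 0.0408, and the nearest genes outside were ADGRG2, PPP1R10 and CSF2 at 0.0508. Its adjusted p was 5.63e-07 in DESeq2 and 0.00911 in limma voom. It was chosen for its rise in these libraries, so these values too are a description. The TTLL11 call was lost in 6 of the 8 fits with 1 library left out, those without any 1 CDK4WT library or without CDK4KO replicate 2 or 3, with edgeR adjusted p from 0.0182 to 0.160 over the 8.

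TTLL11 (ENSG00000175764) lies on chromosome 9 from 121821928 to 122093606, on the minus strand of hg38, and shares no exon with another gene in GENCODE 29. CDK4 acts through RB on the E2F factors, so the 250 bases before the RefSeq start sites were searched for the E2F letters TTTCCCGC, TTTGGCGC, TTTCGCGC and TTTGCCGC, the CHR element TTTGAA, the E-box CACGTG, the GC box GGGCGG and the CCAAT box, on both strands. RefSeq (GRCh38.p14) gave 11 such windows for 8 of the 9 genes. The outer TTLL11 window, at the 5′ end of the gene, held an E-box 78 bases and a GC box 145 bases before the start and no E2F or CHR match, and a second window inside the gene held none of the motifs. The E2F letters were found in 1 of the 11 windows, that of AGBL5, 218 bases before the start. This window begins at 27051418, inside the gene as GENCODE 29 has it, which starts at 27042364. The windows of TTLL3 and TTLL5 also lie inside their GENCODE 29 genes. The sites are shown because they are the E-box and E2F matches among these genes, 30 bases each with the match in capitals, at chr9:122093369-122093398 on the minus strand and chr2:27051439-27051468 on the plus strand.
TTLL11: gacaggcagggtCACGTGggcagcctcgcc
AGBL5: gccgctttatcTTTCCCGCctcccggcagg
Among all 35116 RefSeq windows of this length, 2.79% held an E2F match, 6.34% an E-box, 42.6% a GC box, 32.0% a CCAAT box and 13.3% the CHR letters. Of the 11 windows here, 9 held a GC box, 1 a CCAAT box and 0 the CHR letters, and no match of one motif overlapped a match of another. A match describes letters and is not evidence of binding.

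**Figure D1:**
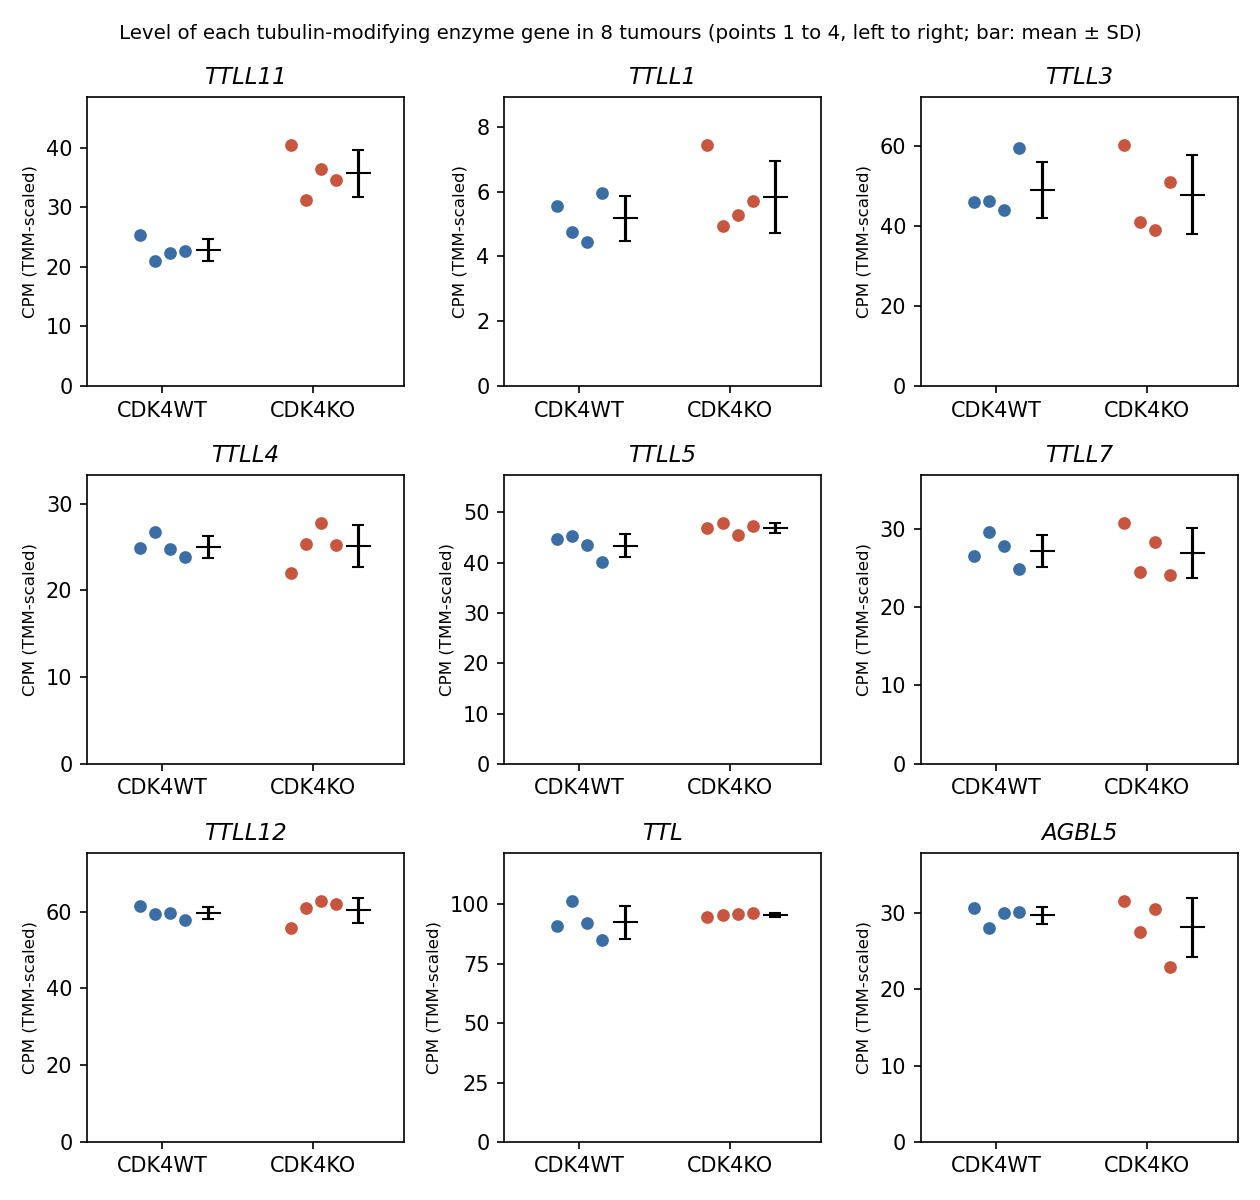
Level of each of the 9 genes in CPM (vertical axes, from 0) in the 4 CDK4WT and 4 CDK4KO tumours. Points are replicates 1 to 4 from left to right, and the bar beside them is the mean ± SD. TTLL11 separates the genotypes at 21.0 to 25.3 against 31.1 to 40.5 CPM, and TTLL5 separates them by a much smaller step.

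None of the other 4 glutamylases passed the test. TTLL5, which places the first glutamate on alpha-tubulin, came nearest. Its 4 CDK4WT libraries had 44.7, 45.3, 43.5 and 40.1 CPM and its 4 CDK4KO libraries 47.0, 48.0, 45.5 and 47.3 CPM. The genotypes did not overlap, by a margin of less than 1 CPM, with CDK4WT replicate 4 lowest. Of all genes, 3.87% were separated in this direction. The log2 fold change was 0.11 ± 0.06 (SE, 95% interval -0.02 to 0.24; edgeR adjusted p = 0.456), so TTLL5 did not pass.

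TTLL1, the catalytic subunit of a multi-protein polyglutamylase, was the rarest of the 9, with 124 to 218 reads per library. It had 5.56, 4.75, 4.45 and 5.96 CPM in CDK4WT and 7.45, 4.93, 5.29 and 5.71 CPM in CDK4KO. The genotypes overlapped, and CDK4KO replicate 1 was the highest library, as it was for TTLL11. The log2 fold change was 0.17 ± 0.16 (95% interval -0.17 to 0.52; edgeR adjusted p = 0.676) and -0.02 ± 0.16 without CDK4KO replicates 1 and 4. Its interval is the widest of the 9. The spread between tumours was 13.5% and 19.1%, and counting alone gives up to 8.98%.

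TTLL4, which starts glutamate chains mainly on beta-tubulin, had 24.8, 26.7, 24.7 and 23.8 CPM in CDK4WT. In CDK4KO it had 21.95, 25.4, 27.8 and 25.2 CPM, so the CDK4KO libraries held both its lowest and its highest value. The log2 fold change was 0.004 ± 0.082 (95% interval -0.18 to 0.18; edgeR adjusted p = 0.990). TTLL7, a beta-tubulin polyglutamylase known from neurons, had 26.5, 29.6, 27.8 and 24.8 CPM in CDK4WT and 30.7, 24.4, 28.3 and 24.0 CPM in CDK4KO. Its genotypes overlapped throughout, at -0.02 ± 0.09 (95% interval -0.23 to 0.19; edgeR adjusted p = 0.958).

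The ligases for other residues did not pass either. TTL, which re-adds tyrosine to alpha-tubulin, had the most reads of the 9, with 91.0, 102, 92.0 and 85.0 CPM in CDK4WT and 94.5, 95.3, 96.0 and 96.3 CPM in CDK4KO. All CDK4KO values lay inside the CDK4WT range. Its log2 fold change was 0.05 ± 0.06 (95% interval -0.09 to 0.18; edgeR adjusted p = 0.776). TTLL12, a divergent member without an established ligase activity of its own, had 61.5, 59.4, 59.7 and 57.7 CPM in CDK4WT and 55.7, 60.9, 62.8 and 61.9 CPM in CDK4KO. It stood at 0.02 ± 0.06 (95% interval -0.11 to 0.15; edgeR adjusted p = 0.923), and CDK4KO replicate 1 was the lowest library.

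TTLL3, which starts glycine chains, varied most between tumours of the same genotype. It had 46.2, 46.2, 44.2 and 59.5 CPM in CDK4WT and 60.4, 41.0, 39.0 and 51.2 CPM in CDK4KO, with spreads of 14.4% and 20.6%. CDK4WT replicate 4 and CDK4KO replicates 1 and 4 were high and the other 5 libraries low, so the split did not follow the genotype. The log2 fold change was -0.03 ± 0.14 (95% interval -0.35 to 0.29; edgeR adjusted p = 0.948). Without CDK4KO replicates 1 and 4 it was -0.29 ± 0.12 (edgeR adjusted p = 0.200). In GENCODE 29, 21.4% of its exon bases are shared with the readthrough gene ARPC4-TTLL3 on the same strand, so part of its count is uncertain.

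AGBL5, the carboxypeptidase CCP5 that removes the glutamate at the branch point of a chain, had 30.6, 28.1, 30.02 and 30.2 CPM in CDK4WT and 31.6, 27.5, 30.5 and 22.9 CPM in CDK4KO. CDK4KO replicate 4 was the low library, and the other 3 lay around the CDK4WT values. The log2 fold change was -0.08 ± 0.10 (95% interval -0.29 to 0.13; edgeR adjusted p = 0.768). AGBL5 shares 3.10% of its exon bases with the antisense gene AC013472.3 and 2.86% with OST4 on the opposite strand. TTLL1 shares 14.98% with an antisense RNA, and TTLL5 2.71% with FLVCR2 on the same strand. What this does to the counts depends on the strand setting and on how reads in shared bases were counted. TTLL4, TTLL7, TTLL12 and TTL share no exon with another gene.

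Set side by side, 5 of the 8 other genes had a positive and 3 a negative log2 fold change, with a median of 0.01 and a range of -0.08 to 0.17. Over all genes the median was 0.004 and 51.2% were positive. None of the 8 passed edgeR's test (0 also at an unadjusted p of 0.05, which 13% of all genes reached), DESeq2 (2.33% of all genes called) or limma voom with library quality weights (2.37%), with adjusted p from 0.456 to 0.990 in edgeR. The 95% interval of each of the 8 ended below the TTLL11 value of 0.64, at upper ends of 0.13 to 0.52. This was so for 93.3% of all genes, and the TTLL11 value is the one that chose the gene and carries its own error, so the count is a description. In 7 of the 8 the interval also ended below the lower end of the TTLL11 interval, 0.44, and TTLL1 was the exception. In this fit of all 8 libraries the upper ends correspond to 1.10-fold for AGBL5, 1.13-fold for TTL, 1.18-fold for TTLL5 and 1.43-fold for TTLL1. They move with the libraries used, and without CDK4WT replicate 4 the upper end of TTLL1 was 0.62.

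**Figure D2:**
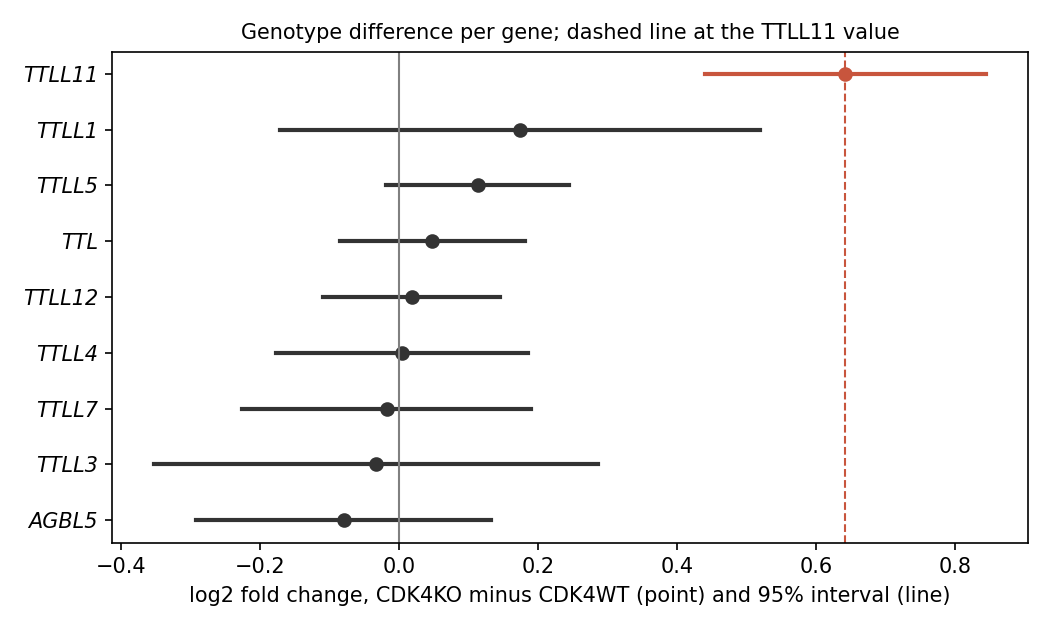
Log2 fold change, CDK4KO minus CDK4WT (horizontal axis), of the 9 genes as points with their 95% intervals as lines; the dashed line marks the TTLL11 value. Only the TTLL11 interval lies clear of 0, and the 8 others end between 0.13 and 0.52, below the dashed line at 0.64.

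The remaining 8 genes lie apart from TTLL11 and mostly from each other in hg38. TTLL1 (ENSG00000100271, 43039644 to 43089428) and TTLL12 (ENSG00000100304, 43166622 to 43187133) are both on chromosome 22. AGBL5 (ENSG00000084693, 27042364 to 27070622), TTL (ENSG00000114999, 112482154 to 112541739) and TTLL4 (ENSG00000135912, 218710845 to 218755416) are on chromosome 2. TTLL7 (ENSG00000137941) is on chromosome 1 from 83865028 to 83999150, TTLL3 (ENSG00000214021) on chromosome 3 from 9808086 to 9855138 and TTLL5 (ENSG00000119685) on chromosome 14 from 75633625 to 75955078. GENCODE 29 lists each of the 9 as a protein-coding gene.

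Levels of different genes were compared per kilobase of annotated exon. TTLL12 was highest, at 12.9 CPM per kb ± 0.333 in CDK4WT and 13.1 ± 0.691 in CDK4KO, and all 8 of its libraries lay above all 8 of TTLL11. TTLL11 was next, at 6.46 CPM per kb ± 0.515 in CDK4WT and 10.1 ± 1.10 in CDK4KO. It was followed by TTL (5.87 ± 0.435 and 6.07 ± 0.0518), AGBL5 (5.63 ± 0.214 and 5.33 ± 0.735) and TTLL3 (4.73 ± 0.681 and 4.62 ± 0.954). TTLL5, TTLL4, TTLL1 and TTLL7 came last, with means over the 8 libraries of 3.68, 3.26, 3.15 and 2.56 CPM per kb. From TTLL11 downwards each gene overlapped the next, although TTLL5 was above TTLL4 and below TTLL3 within each of the 8 libraries. The order rests on the length used. Per kilobase of coding sequence TTL, whose longest transcript has 14269 bases around 1131 coding bases, was highest at 83.1 CPM per kb, and TTLL11, at 12.2, came after TTL, TTLL12 and TTLL3.

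Among the glutamylases (TTLL1, TTLL4, TTLL5, TTLL7 and TTLL11), TTLL11 made up 36.3%, 31.8%, 34.7% and 34.6% of the summed CPM per kb in CDK4WT replicates 1 to 4. In CDK4KO replicates 1 to 4 its share was 45.2%, 41.6%, 44.1% and 43.6%. The sum of the 4 other glutamylases was 12.3 CPM per kb ± 0.357 in CDK4WT and 13.0 ± 0.650 in CDK4KO and overlapped between the genotypes. With coding length in place of exon length the TTLL11 shares were lower, at 20.4% to 24.3% and 28.5% to 32.1%. The ratio of TTLL11 to AGBL5, in CPM of each, was 0.746 to 0.827 in CDK4WT and 1.13 to 1.51 in CDK4KO. These shares carry the TTLL11 difference for which the gene was chosen and were not tested.

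**Figure D3:**
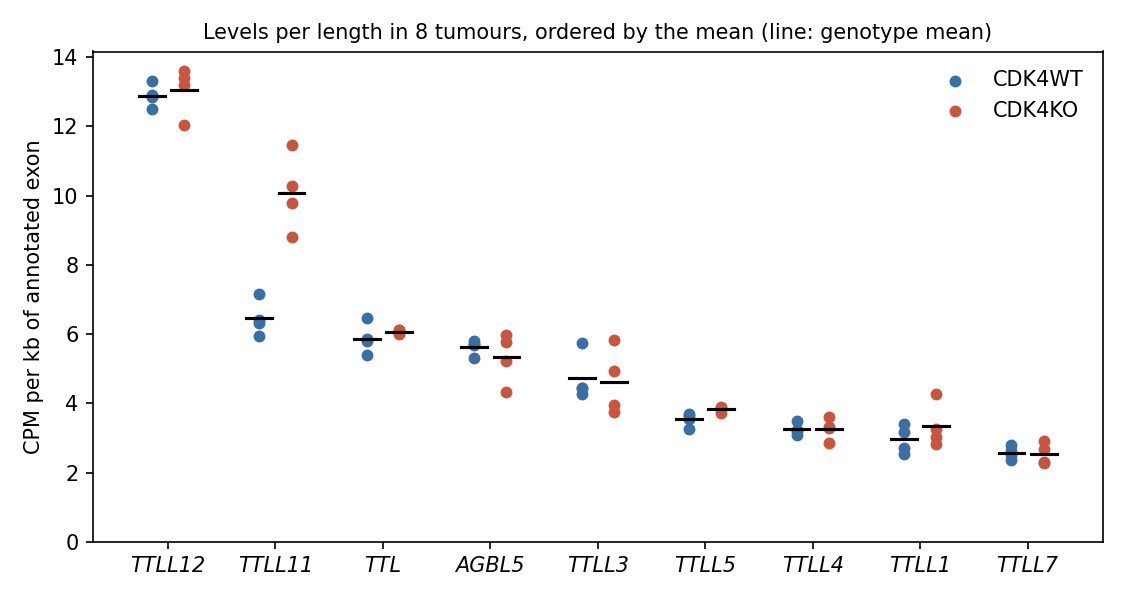
CPM per kb of annotated exon (vertical axis, from 0) of the 9 genes, ordered by their mean over 8 libraries. Points are tumours, blue for CDK4WT and red for CDK4KO, and lines are genotype means. TTLL11 has the widest step between genotypes, from 6.46 to 10.1 CPM per kb.

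The spread of TTL between tumours was 7.40% in CDK4WT and 0.853% in CDK4KO, the latter below the 1.70% to 2.02% that counting alone gives, so it is no measure of even expression. TTLL12 varied by 2.59% and 5.29%. After each genotype's mean was subtracted, the 2 highest Pearson correlations over the 8 libraries among the 36 pairs were those of TTLL1 with TTLL3 (Pearson 0.87, Spearman 0.86) and TTLL4 with TTLL12 (0.83 and 0.67). The lowest by Pearson was that of TTLL3 with TTLL4 (-0.82 and -0.71). By Spearman the highest was TTLL11 with AGBL5 (Pearson 0.55, Spearman 0.88) and the lowest TTLL3 with TTLL12 (-0.79 and -0.74). TTLL1 and TTLL3 were both high in CDK4KO replicate 1 and CDK4WT replicate 4, where TTLL4 was at its lowest within each genotype. TTLL11 was thus nearest to AGBL5 by Spearman and to TTLL1 by Pearson (0.76, with a Spearman of 0.69). These are descriptions of 8 libraries that share the scaling, with no test.

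Over all genes, those most like TTLL11 in log2 CPM over the 8 libraries were UBTF (Pearson 0.98, Spearman 0.95), an RNA polymerase I transcription factor, PPIEL (0.98 and 0.95), the antisense gene ADGRL1-AS1 (0.98 and 0.95) and BOC (0.97 and 0.90), a cell surface receptor of the hedgehog pathway. In each of the 4, all CDK4KO libraries lay above all CDK4WT libraries. They were picked for following TTLL11, which itself separates the genotypes, so this comes with the choice. The 4 log2 fold changes were 0.19 ± 0.05, 0.62 ± 0.16 (PPIEL, from a CDK4WT mean of 1.05 CPM), 0.39 ± 0.08 and 0.49 ± 0.10. None passed edgeR's test, with adjusted p from 0.100 to 0.190. With genotype means subtracted the most alike were MRPS18B (0.98 and 0.90), a mitochondrial ribosomal protein gene, SYNE2 (0.98 and 0.93), which encodes the nuclear envelope protein nesprin-2, NUDT22 (0.97 and 0.93) and ZNG1F (0.97 and 0.98). By Spearman correlation, 1 of the first 4 and 0 of the second 4 were among the 4 most alike, so these names depend on the measure.

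None of the genes measured beside TTLL11 on chromosome 9 passed edgeR's test. The 5 nearest measured genes on each side lay between 121074863 and 122828631. Of these, 9 had a positive and 1 a negative log2 fold change, with a median of 0.09. Over all genes the median was 0.004 and 51.2% were positive. An unadjusted edgeR p of 0.05 was reached by 1 of the neighbours, against 13% of all genes. DAB2IP, a RAS GTPase-activating protein gene next to TTLL11, went from 77.5 CPM ± 3.50 to 93.2 CPM ± 9.49 (0.27 ± 0.08, edgeR adjusted p = 0.191). All its CDK4KO libraries lay above all its CDK4WT libraries, as in 3.87% of all genes. NDUFA8, on the other side, stood at 0.06 ± 0.07 and GSN, which encodes the actin-severing protein gelsolin, at 0.10 ± 0.13. LHX6 had 0.38 ± 0.21 (edgeR adjusted p = 0.499) from a CDK4WT level of 2.21 CPM, and its interval reached past the TTLL11 value. CNTRL, RAB14, STOM, RBM18 and PDCL lay between 0.002 and 0.10, and MRRF at -0.14.

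**Figure D4:**
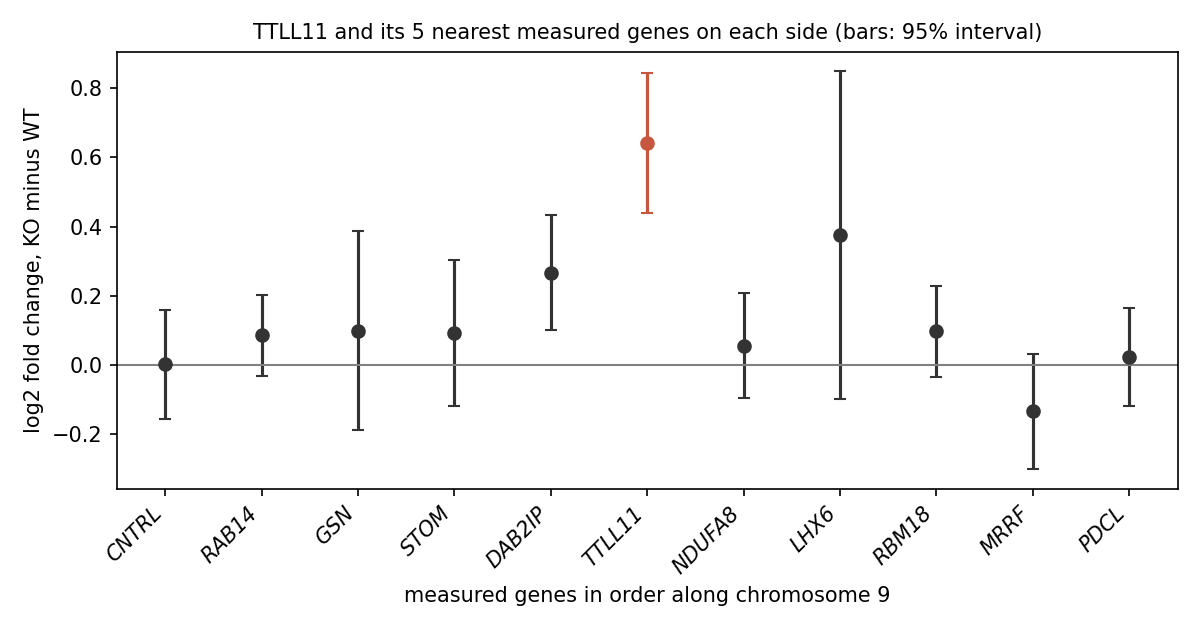
Log2 fold change, CDK4KO minus CDK4WT (vertical axis), of TTLL11 and the 5 nearest measured genes on each side in their order along chromosome 9 (horizontal axis); bars are 95% intervals. TTLL11 at 0.64 stands above its 10 neighbours, which run from -0.14 to 0.38.

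The rest of the tubulin code was described by lists. Over all genes, edgeR's test called 0.0591% and DESeq2 2.33%, and 13% reached an unadjusted edgeR p of 0.05. Of 18 further family members, polyglutamylase partners and deglutamylases, 9 had counts, and TTLL2, TTLL6, TTLL8, TTLL9, TTLL10, TTLL13, NICN1, AGBL1 and AGBL4 were not analysed here. None of the 9 passed edgeR's test over all genes or DESeq2, 1 higher and 1 lower reached an unadjusted p of 0.05, and their median was 0.02. LRRC49, a subunit of the TTLL1 polyglutamylase, had 8.35, 8.44, 8.25 and 8.70 CPM in CDK4WT and 6.56, 7.31, 6.58 and 6.94 CPM in CDK4KO. All CDK4KO libraries were below all CDK4WT libraries, at -0.30 ± 0.09 (edgeR adjusted p = 0.224), opposite in sign to TPGS2, another subunit, at 0.16 ± 0.07 (0.354). LRRC49 was the only 1 of the 9 whose genotypes did not overlap, against 7.68% of all genes in either direction. AGBL3, a deglutamylase, stood at 0.15 ± 0.16, and AGTPBP1, the deglutamylase CCP1, at -0.03 ± 0.09 with a mean of 68.3 CPM in CDK4WT. Under the alternatives tried, too, none of these 9 passed.

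Of 8 detyrosination and acetylation enzymes, 2 were positive and 6 negative, with a median of -0.14. None passed edgeR's test or DESeq2, and 1 higher and 1 lower reached an unadjusted p of 0.05, against 13% of all genes. VASH1, a peptidase that removes the tyrosine TTL adds, had 16.6, 15.8, 14.6 and 16.6 CPM in CDK4WT and 22.2, 15.9, 20.2 and 22.6 CPM in CDK4KO. It overlapped between the genotypes through CDK4KO replicate 2, at 0.34 ± 0.11 (edgeR adjusted p = 0.241). MATCAP2, a peptidase related to the detyrosinating enzyme MATCAP1, was lower in all CDK4KO libraries, at -0.23 ± 0.09 (0.324), and the deacetylase HDAC6 stood at -0.13 ± 0.08 (0.525). MATCAP2 was the only 1 of the 8 whose genotypes did not overlap, against 7.68% of all genes.

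Tubulin chains, the substrates, had a median of 0.06 over 14 genes with counts of 22 listed, 9 positive and 5 negative. None passed edgeR's test, and 1 higher and 3 lower reached an unadjusted p of 0.05, against 13% of all genes. TUBA1C, an alpha-tubulin, had 417, 419, 404 and 380 CPM in CDK4WT and 478, 445, 446 and 493 CPM in CDK4KO. All CDK4KO libraries were above all CDK4WT libraries, at 0.20 ± 0.06 (edgeR adjusted p = 0.224; DESeq2 adjusted p = 0.0383). TUBA4A and TUBE1, the epsilon-tubulin of centrioles, were lower in all CDK4KO libraries, at -0.18 ± 0.06 (edgeR adjusted p = 0.272) and -0.21 ± 0.08 (0.309). In 5 of the 14 the genotypes did not overlap, against 7.68% of all genes. Alpha- and beta-tubulin genes resemble one another and have pseudogenes, so the split of reads among them is uncertain.

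Severing enzymes had a median of -0.01 over 7 genes with counts of 9, 1 positive and 6 negative. None passed edgeR's test or DESeq2, and 1 reached an unadjusted p of 0.05, against 13% of all genes. FIGNL1, a fidgetin-like ATPase, stood at 0.21 ± 0.09 (edgeR adjusted p = 0.370) and KATNBL1 at -0.05 ± 0.06. Cilium and centriolar satellite genes had a median of -0.02 over 23 genes, 9 positive and 14 negative. None passed edgeR's test or DESeq2, and 1 higher and 4 lower reached an unadjusted p of 0.05, against 13% of all genes. DYNC2H1, the motor of retrograde transport in cilia, stood at 0.22 ± 0.08 (edgeR adjusted p = 0.293). The transport genes IFT81 and IFT172 stood at -0.21 ± 0.08 (0.314) and -0.15 ± 0.06 (0.323). In all 61 genes of these 5 lists the 95% interval ended below the TTLL11 value of 0.64. This was so for 93.3% of all genes, and that value chose TTLL11, so the count is a description.

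**Figure D5:**
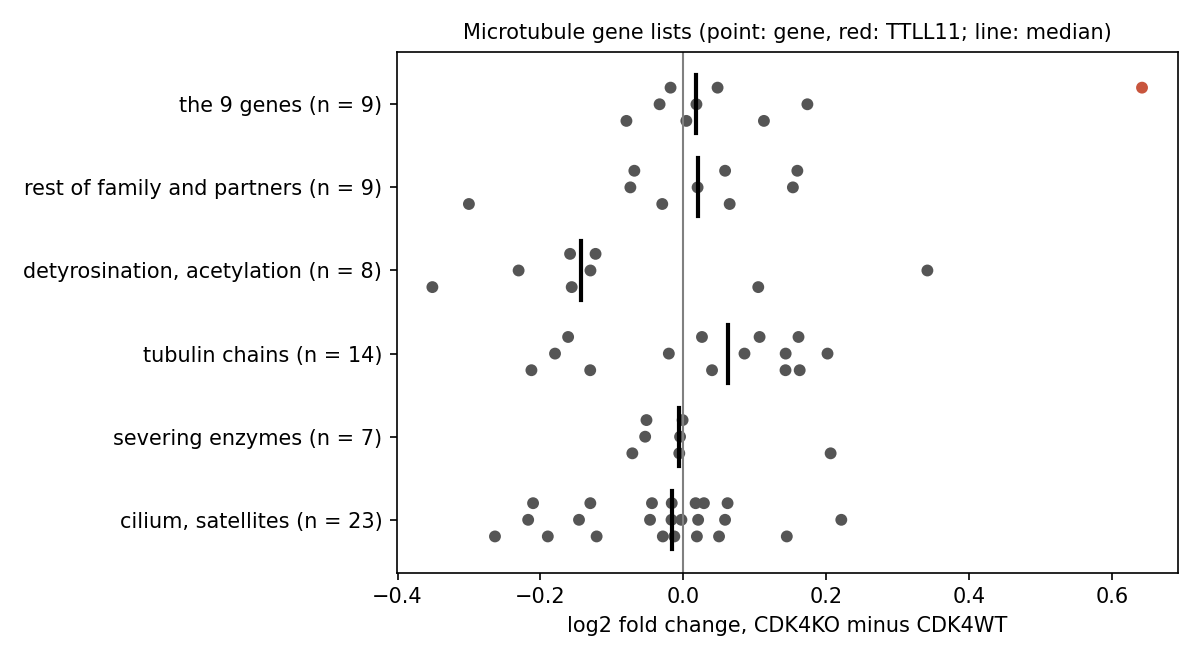
Log2 fold change, CDK4KO minus CDK4WT (horizontal axis), of every gene with counts in 6 microtubule gene lists (vertical axis, with n); points are genes, TTLL11 in red, and lines are medians. List medians lie between -0.14 and 0.06, and TTLL11 is at 0.64.

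Marker lists of other cells were read beside these values, and listed markers without counts were not analysed here. The markers are human genes, whereas the host cells are mouse, and how mouse reads were handled is not given. Whether these counts come from host or tumour cells therefore cannot be told, and the sums do not measure host content. Endothelial markers (4 of 7 with counts) summed to 20.4 to 21.8 CPM in CDK4WT and 20.4 to 26.1 CPM in CDK4KO, and leukocyte markers (4 of 7) to 16.1 to 26.8 and 18.7 to 20.4 CPM. Fibroblast markers (4 of 8) summed to 775 to 1192 and 682 to 1178 CPM. Muscle, fat and nerve markers (3 of 12: DES, ACTA1 and PLIN1) summed to 9.43 to 28.3 CPM in CDK4WT and 5.22 to 9.39 CPM in CDK4KO. The sums did not overlap, but by a narrow margin, and each of the 3 genes taken singly overlapped between the genotypes. Their log2 fold changes were -1.33 ± 0.36, -1.21 ± 0.41 and -0.91 ± 0.29. DES passed DESeq2 (adjusted p = 0.0328) and did not pass edgeR's test (adjusted p = 0.186). Proliferation markers (6 of 6) summed to 880 to 1156 and 1069 to 1138 CPM. The part of these cells in the TTLL11 difference was not tested.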

How the data were processed

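Per the labels, tumour RNA was taken up in Trizol and sequenced as mRNA libraries. The values the authors deposited are raw counts, whole reads per Ensembl gene. Per the submitters' processing notes, the tools were cutadapt, STAR 2.7.11a, featureCounts 2.0.4 and DESeq2 1.46.0, with hg38 as the genome build. Not given in the sources used here: the annotation release, the strand setting and how mouse reads were handled. Every gene of the table exceeds 1 CPM in at least 4 libraries.

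Columns for CDK4KO carry the library-name numbers and were matched through them. Symbols were found for 13524 of 13546 identifiers, and GENCODE 29 gave models for 13455. The test of CDK4KO against CDK4WT was that of edgeR 4.0.16 in R 4.3.3 (TMM, filterByExpr, which removed 0 genes, robust quasi-likelihood test, Benjamini-Hochberg adjustment over all genes, threshold 0.05). Standard errors are those implied by the F statistic, and 95% intervals use its degrees of freedom. The steps were tested on simulated data. Log2 CPM used a prior count of 2. DESeq2 1.42.0, limma 3.58.1 voom, other scalings and filters, no robust estimation, the replicate block and each library left out were alternatives. Named genes are the 9, up to 3 of each list with the smallest p (AGTPBP1 and, among the markers, VIM, DES, ACTA1 and PLIN1 were added), the 4 most like TTLL11 by each measure, its 5 neighbours a side and CDK4; ADGRG2, PPP1R10 and CSF2 mark the threshold. One gene that the rule names is not reported here. The genes, lists and tests were chosen with earlier results of these data known. Motifs were chosen after the values were seen.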

Additional observations from a re-analysis of the deposited data

Results flagged for a closer look

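One library was far from the others of its group. In TTLL3, CDK4WT replicate 4 had 59.5 CPM against 44.2 to 46.2 CPM in the other 3, and its gap to the nearest was 0.869 of the group's range, above Dixon's 95% limit for 4 samples. Chance alone sets off this rule in about 1 group in 20, and 18 groups (9 genes in each genotype) were examined. Without that library the TTLL3 log2 fold change was 0.07 ± 0.14.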

How the results depend on the processing

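Over 17 alternatives the TTLL11 log2 fold change stayed between 0.56 and 0.70. Its call was lost on leaving out any single CDK4WT tumour, or CDK4KO replicate 2 or 3 (edgeR adjusted p over the 8 fits with 1 library left out 0.0182 to 0.160), so between 0 and 1 of the 9 genes were called in these fits. None of the 8 other genes was called in any of the 17 (adjusted p at least 0.200). In each fit the 95% intervals of all 8 ended below the TTLL11 value, which in the main fit held for 93.3% of all genes. The number of genes called over all genes was 8, against 315 with DESeq2, 321 with limma voom, 14 with library size only and 0 to 183 with 1 library left out (0 without CDK4WT replicate 4 or CDK4KO replicate 2, 183 without CDK4KO replicate 1). Leaving out CDK4KO replicates 1 and 4, an alternative added after the data were seen, gave 447. In the 5 other tubulin-code lists 0 genes were called, against 1 with DESeq2 (TUBA1C) and 1 each with limma voom and without CDK4KO replicates 1 and 4 (DYNC2H1, 0.31 ± 0.07 and 0.34 ± 0.07); the cause was not tested.

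Small differences changed sign with 1 library left out: TTLL3 ran from -0.165 to 0.0711, TTLL4 from -0.0482 to 0.0613, TTLL7 from -0.0901 to 0.0318, TTLL12 from -0.00159 to 0.0534 and AGBL5 from -0.141 to 0.00675. TTLL1 went to -0.0186 without CDK4KO replicates 1 and 4. With the replicate number as a block 13 genes were called, and TTLL11 stood at 0.64 ± 0.07. Over all genes, deviations of same-numbered tumours had correlations of -0.03 to 0.19, and those of unlike numbers reached 0.20. TTLL11 was highest in replicate 1 and lowest in replicate 2 of both genotypes. The labels do not say whether the numbers pair tumours, and these values cannot decide it.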
